A study of Mus musculus with 15 samples.

Results

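The zinc metalloproteinases of the Mmp, Adam and Adamts families were followed in LSZ2 and LSZ4, cell lines from mouse non-small cell lung cancer, that carried a control hairpin or a hairpin against Siva. Members were the genes whose array name begins with Mmp, Adam or Adamts followed by a digit. Where several probes named a gene, the probe with the highest mean signal stood for it. This gave 76 members of 36282 genes named on the array, 23 of them Mmp, 34 Adam and 19 Adamts genes. The rule uses names for membership and signal only to pick a probe.

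Matrix metalloproteinases (Mmp) are secreted or membrane-bound enzymes that cut collagens, proteoglycans and other proteins outside the cell. They are made as inactive precursors and are held in check by the Timp proteins. Adam proteins sit in the membrane, where those with an intact zinc site release growth factors, cytokines and receptors from the cell surface, and many other family members are known from sperm. Adamts proteins are secreted and act on procollagens, on proteoglycans such as aggrecan and versican, and on microfibrils. In lung tumours, members of these families are known for matrix turnover and for the shedding of ligands of the epidermal growth factor receptor.

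LSZ2 and LSZ4 are cultured mouse lines, each a single line, and their genotype is not given in the sources used here. Both lines received shGFP in the vector pLKO.1 or shLacZ in the vector LL37 as controls, and shSiva1 or shSiva2 in the vector pLKO TRC2.0. Virus made in 293T cells delivered the hairpins. All but the shLacZ cells were kept in puromycin for 3 days, and RNA was taken 2 days after plating from cells below confluence in DMEM with 10% serum. LSZ2 shGFP was measured on 1 array and the other 7 pairings of line and hairpin on 2 each, giving 7 control and 8 shSiva arrays. shGFP1 and shGFP2 were taken as replicates of the same hairpin, which the labels do not state. Whether replicates were separate cultures is not stated, so the spread behind each p-value may be technical. The control arrays were on slide 1 and the shSiva arrays on slide 2, so slide, vector and Siva hairpin cannot be told apart.

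Values are scaled signals: the processed signal of a probe was divided by the 75th percentile of its array. The result was multiplied by the geometric mean of these percentiles over the arrays (725 intensity units). The 75th percentile ran from 428 to 1029 units. It was lowest on the LSZ4 shGFP arrays (428 and 457), and the share of spots well above background ran from 49.0% to 60.6%. The LSZ4 shLacZ pair had the lowest correlation between replicates, 0.978, against 0.985 to 0.998 in the other groups. LSZ4 shLacZ replicate 1 resembled LSZ2 shLacZ replicate 1 most. Both LSZ4 shSiva1 arrays and LSZ4 shSiva2 replicate 1 were also most like an LSZ2 array. Siva1, the target of the hairpins, lay between 27885 and 65115 on the control arrays and between 3573 and 12313 on the shSiva arrays. The epithelial keratin genes Krt8, Krt18 and Krt19 were well above background on all 15 arrays, and all 9 epithelial markers on 11 or more. Of 6 lung markers, Sftpd was on 15 arrays, Sftpb on 11, Napsa on 1 and Nkx2-1, Sftpa1 and Sftpc on none. Of 9 stromal markers, Vim and Col1a2 were on 15, Col3a1 on 8, Col1a1 on 5 and Pdgfra, Pdgfrb, Dcn, Lum and Thy1 on none. Of 9 macrophage and leukocyte markers, Itgam, Cd14, Csf1r and Elane were on 15, Adgre1 on 10, Ptprc on 8, Cd68 on 3 and Lyz2 and Mpo on none. Of 6 endothelial markers, Kdr and Pecam1 were on 15, Vwf on 8, Cldn5 on 1 and Cdh5 and Tek on none. In bulk RNA, fewer cells of a kind and less RNA per cell cannot be told apart.

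Promoter windows, 250 bases before to 50 after an annotated start in RefSeq (build GRCm38.p6), were matched by symbol for 46 of the 76 members. Below are the windows of Mmp13, Mmp3 and Mmp10, neighbouring genes called lower in LSZ4, of their neighbour Mmp1a, which was on no array well above background, and of Mmp14 and Mmp11, which were higher with shSiva1. Capitals mark TGANTCA (the AP-1 motif), TATAAA (the TATA box) and GGGCGG (the GC box) on either strand.
Mmp13 (chr9:7272264-7272563, plus strand): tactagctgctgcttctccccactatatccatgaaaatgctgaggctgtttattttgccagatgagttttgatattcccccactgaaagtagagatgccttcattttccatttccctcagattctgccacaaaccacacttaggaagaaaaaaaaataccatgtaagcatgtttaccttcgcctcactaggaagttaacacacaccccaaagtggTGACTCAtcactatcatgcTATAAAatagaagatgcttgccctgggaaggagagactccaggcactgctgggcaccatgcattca
Mmp3 (chr9:7445572-7445871, plus strand): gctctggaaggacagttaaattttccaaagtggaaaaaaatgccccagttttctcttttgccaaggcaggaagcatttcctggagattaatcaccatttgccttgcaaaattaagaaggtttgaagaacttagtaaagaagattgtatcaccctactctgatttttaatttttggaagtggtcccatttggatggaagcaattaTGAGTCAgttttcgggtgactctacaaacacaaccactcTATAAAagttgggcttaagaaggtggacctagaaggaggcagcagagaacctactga
Mmp10 (chr9:7502092-7502391, plus strand): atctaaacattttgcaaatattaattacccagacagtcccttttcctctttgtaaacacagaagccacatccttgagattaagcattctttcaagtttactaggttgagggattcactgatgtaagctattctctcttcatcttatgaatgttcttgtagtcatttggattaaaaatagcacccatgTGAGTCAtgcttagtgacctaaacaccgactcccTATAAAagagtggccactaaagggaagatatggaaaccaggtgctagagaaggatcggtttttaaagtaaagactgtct
Mmp1a (chr9:7463891-7464190, plus strand): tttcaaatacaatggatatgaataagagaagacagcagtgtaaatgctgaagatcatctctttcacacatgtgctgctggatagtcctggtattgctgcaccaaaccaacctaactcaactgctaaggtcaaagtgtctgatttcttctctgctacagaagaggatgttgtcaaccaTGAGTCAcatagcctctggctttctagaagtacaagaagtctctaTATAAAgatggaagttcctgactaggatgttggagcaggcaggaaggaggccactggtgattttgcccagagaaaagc
Mmp14 (chr14:54431348-54431647, plus strand): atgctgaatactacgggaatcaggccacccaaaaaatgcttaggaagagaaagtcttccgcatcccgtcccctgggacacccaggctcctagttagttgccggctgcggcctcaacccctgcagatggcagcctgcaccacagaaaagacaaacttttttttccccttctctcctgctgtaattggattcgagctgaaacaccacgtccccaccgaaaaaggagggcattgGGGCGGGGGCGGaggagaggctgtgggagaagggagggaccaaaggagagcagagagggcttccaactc
Mmp11 (chr10:75932453-75932752, minus strand): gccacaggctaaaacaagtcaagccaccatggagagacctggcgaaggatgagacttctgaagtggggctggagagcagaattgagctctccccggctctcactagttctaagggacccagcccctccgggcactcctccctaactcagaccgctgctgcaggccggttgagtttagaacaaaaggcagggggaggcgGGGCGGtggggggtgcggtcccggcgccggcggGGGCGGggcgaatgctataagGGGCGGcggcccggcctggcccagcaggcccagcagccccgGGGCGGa
Each of the first 4 windows held 1 AP-1 motif upstream of 1 TATA box. In Mmp10 these began at bases -63 and -29 from the annotated start, and in Mmp3 at -46 and -7. The windows of Mmp14 and Mmp11 held neither and had 2 and 4 GC boxes. Over all 32851 windows in the table, 7.81% held the AP-1 motif, 13.6% the TATA box, 35.7% the GC box and 1.54% both AP-1 motif and TATA box. Of the 10 Mmp genes on chromosome 9, 8 had a window with AP-1 motif and TATA box together and 0 had a GC box. No motif overlapped another. A match describes letters in a window and not a bound site.

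Transcripts of 46 members (60.5%) were well above background on at least 1 array, against 74.4% of all genes, and 19 members (25%) were on all 15 arrays, against 50.5% of all genes. The other 30 members were on none. The Adam enzymes known as sheddases were the role most often seen on every array: 7 of 9 (Adam8, Adam9, Adam10, Adam12, Adam15, Adam17 and Adam33) were on all 15 arrays, and Adam19 and Adam28 were on none. Of the collagenases, Mmp13 was on 8 arrays and Mmp1a, Mmp1b and Mmp8 on none, and the gelatinases Mmp2 and Mmp9 were also on none. All 3 stromelysins were seen, Mmp11 on all 15 arrays, Mmp10 on 8 and Mmp3 on 5. The matrilysin Mmp7 was on 1 array only.

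Among the membrane-type enzymes, Mmp14 and Mmp17 were on all 15 arrays, Mmp24 on 11 and Mmp15 on 9, with Mmp16 and Mmp25 on none. Mmp28 was on 14 arrays and Mmp23 on 12. Mmp12, Mmp19, Mmp20, Mmp21 and Mmp27 were on none. Of the proteoglycanases, Adamts4 and Adamts8 were on all 15 arrays, Adamts9 on 5, Adamts1 on 2, Adamts5 and Adamts15 on 1 each and Adamts20 on none. The procollagen N-proteinases Adamts2 and Adamts3 were on none, although another probe for Adamts2 was on 2 arrays, and Adamts14 was on 4. Adamts10, a protein of fibrillin microfibrils, was on all 15 arrays, Adamts17 on 10, Adamts12 on 5, Adamts6 on 4, Adamts7 on 2 and Adamts18 on 1. Adamts13, Adamts16 and Adamts19 were on none.

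Of the remaining Adam genes, most of them studied in testis, Adam5, Adam6b, Adam21, Adam26b and Adam32 were on all 15 arrays. Adam1a was on 14 arrays, Adam4 on 10, Adam39 on 8, Adam26a on 4, Adam25 and Adam30 on 3 each, Adam18 on 2 and Adam20 on 1. Adam1b, Adam2, Adam3, Adam6a, Adam7, Adam24, Adam29, Adam34 and Adam34l were on none. The probe of Adam26a lists accessions of Adam26b and Adam34 too, so its signal cannot be given to a single gene. Adam11, which lacks a zinc site, was on all 15 arrays, Adam23 on 1 and Adam22 on none. The germ cell markers Ddx4, Dazl and Zpbp were on none of the 15 arrays and Prm1, Prm2, Tnp1 and Acr on all 15. The summed signal of the 8 germ cell markers was 435 to 577 on LSZ2 control arrays, 316 to 423 on LSZ2 shSiva arrays, 384 to 1235 on LSZ4 control arrays and 388 to 806 on LSZ4 shSiva arrays. Its part in the Adam signals was not tested.

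**Figure D1:**
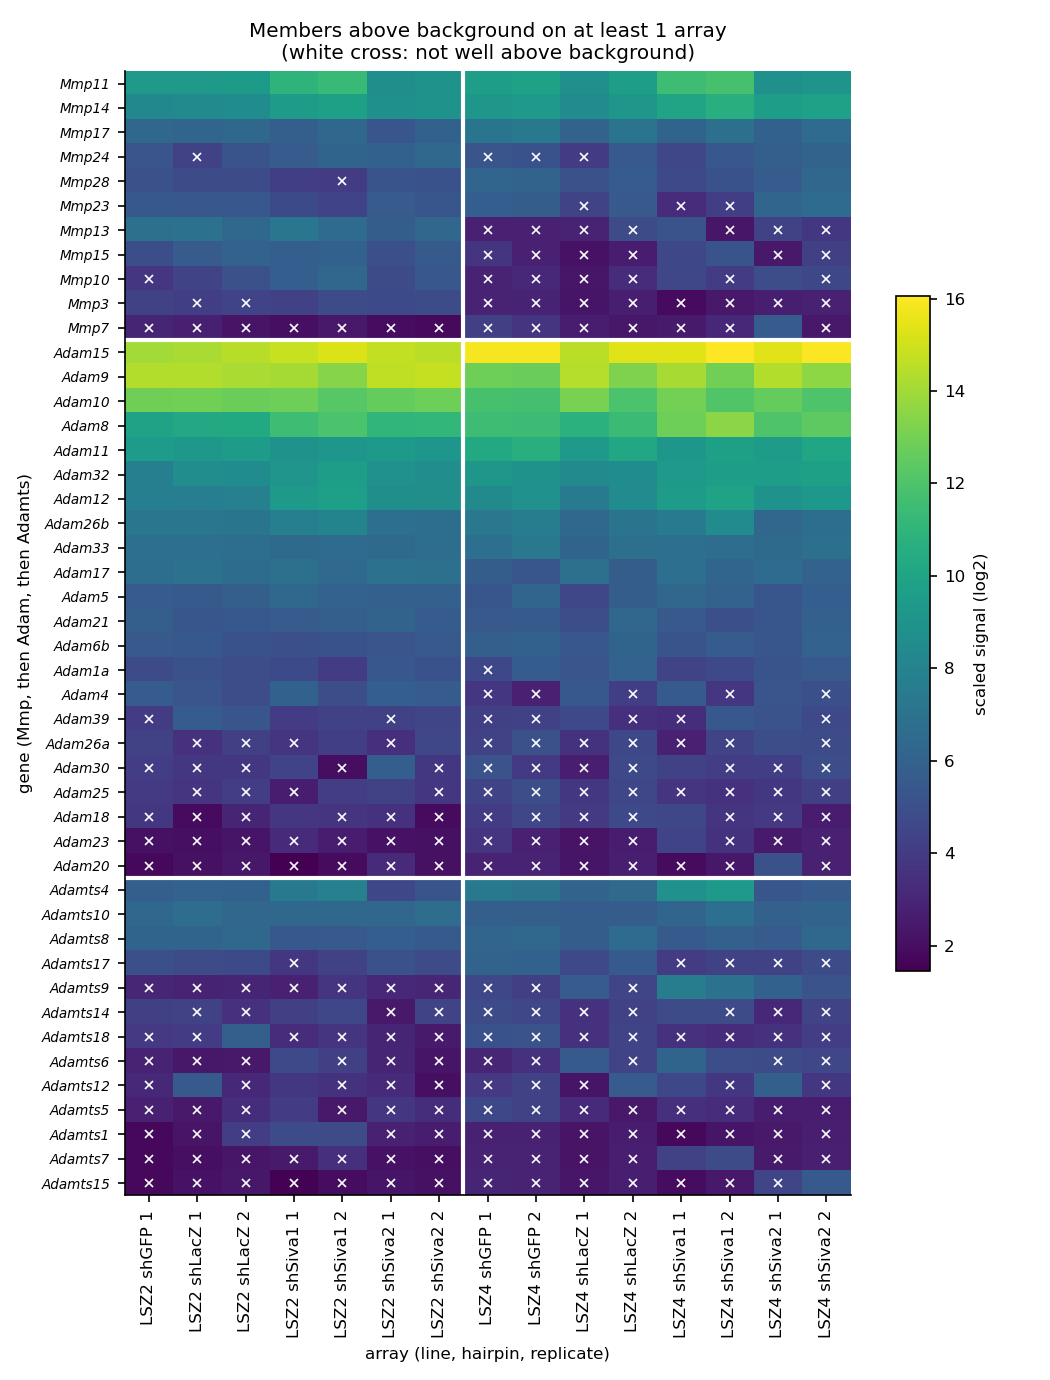
Scaled log2 signal of the 46 members that were well above background on at least 1 array, by array (columns, LSZ2 on the left and LSZ4 on the right) and gene (rows, grouped as Mmp, Adam and Adamts). White crosses mark arrays on which a gene was not well above background: 19 rows have none, and Mmp3 has them on all 8 LSZ4 arrays.

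Adam9, Adam10 and Adam17 were seen on every array. Adam10, which cuts Notch receptors and the amyloid precursor protein, read between 5007 and 7882 on the LSZ2 arrays and between 3426 and 8768 on the LSZ4 arrays. Adam9 read between 10947 and 27937 on LSZ2 arrays and between 6652 and 22306 on LSZ4 arrays. Neither passed a test in any comparison. Adam17, the enzyme that releases tumour necrosis factor, read between 85.7 and 123 on LSZ2 arrays and between 41.7 and 113 on LSZ4 arrays, and did not pass either. The LSZ4 shGFP arrays were close, with 7226 and 6652 for Adam9 at 428 and 457 units, while other LSZ4 pairs lay far apart. Adam9 read 22306 and 9509 on the shLacZ arrays, whose 75th percentiles were 895 and 578 units, and 17826 and 8040 on the shSiva1 arrays, with 964 and 586 units. In these last pairs the brighter array had the higher Adam9 value, and in the shGFP pair the lower one.

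Among the Adamts genes, Adamts10 read between 51.4 and 109 and Adamts8, an enzyme that inhibits blood vessel growth, between 44.4 and 93.7 over the 15 arrays. Adamts10 was higher on every LSZ2 control array (76.4 to 101) than on every LSZ4 control array (51.4 to 59.9), and the shSiva arrays of the lines overlapped. It passed no test. Mmp17, a membrane-type enzyme held by a lipid anchor, read between 68.5 and 163 on the control arrays and between 40.9 and 114 on the shSiva arrays. It passed no test either.

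Silencing of Siva went with higher signals of 5 members: the sheddases Adam8 and Adam12, the membrane-type enzyme Mmp14, the stromelysin Mmp10 and Adam32, a relative studied in testis. The pooled comparison set the 8 shSiva against the 7 control arrays with line as a term, by limma with Benjamini-Hochberg adjustment over the 22882 genes seen above background on 4 or more arrays, and called a gene at an adjusted p under 0.05. In all, 35 members were tested: 5 (14.3%) were called higher and 0 lower, while 9.99% of all genes were called, 4.3% higher and 5.69% lower. The share of members called in either direction was thus near that of all genes. Among the epithelial markers Epcam rose (0.68, limma adjusted p = 0.0099) and Cldn3 fell by 1.89 (adjusted p = 0.00085), and 7 others did not pass. Of the other marker lists, the endothelial Pecam1 (-0.66, adjusted p = 0.017) and the germ cell gene Tnp1 (-0.79, adjusted p = 0.0067) were called. The part of these markers in the result was not tested. The median log2 change was 0.22 over the members tested and -0.12 over all genes tested. The 35 members include genes that passed the filter only through the group where they are high.

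Adam8, a sheddase known from leukocytes and invasive tumours, has its probe on chromosome 7 (147164873 to 147164932, mm9). In LSZ2 it read 925 with shGFP, 1244 and 1270 with shLacZ, 2918 and 3831 with shSiva1, and 2181 and 2253 with shSiva2. In LSZ4 it read 2890 and 2835 with shGFP, 1787 and 2710 with shLacZ, 7296 and 11490 with shSiva1, and 4249 and 5635 with shSiva2. All 8 shSiva arrays lay above every control array of their line. Adam8 rose by 1.34 on the log2 scale (SE 0.21, limma adjusted p = 0.00084), a 2.54-fold change. It rose with each hairpin, by 1.72 (SE 0.18, adjusted p = 7.4e-06) with shSiva1 and by 0.97 (SE 0.18, adjusted p = 0.0024) with shSiva2.

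Adam12, known from developing muscle and for the release of heparin-binding EGF, has a probe that spans 141079625 to 141081861 on chromosome 7. In LSZ2 it read 214 with shGFP, 207 and 229 with shLacZ, 627 and 831 with shSiva1, and 419 and 412 with shSiva2. In LSZ4 it read 348 and 468 with shGFP, 178 and 361 with shLacZ, 695 and 924 with shSiva1, and 475 and 615 with shSiva2. Every shSiva array was above every control array of its line, in LSZ4 narrowly (475 against 468). Adam12 rose by 1.18 (SE 0.22, limma adjusted p = 0.0035) on the log2 scale, and its other 2 probes gave changes of 1.85 and 2.16.

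Mmp14, which cuts collagen at the cell surface and activates the Mmp2 precursor, has its probe on chromosome 14 (55058775 to 55058834). In LSZ2 it read 313 with shGFP, 348 and 383 with shLacZ, 703 and 865 with shSiva1, and 444 and 472 with shSiva2. In LSZ4 it read 583 and 660 with shGFP, 369 and 592 with shLacZ, 1009 and 1619 with shSiva1, and 764 and 908 with shSiva2. Again no shSiva array overlapped the controls of its line. The rise was 0.87 (SE 0.20, limma adjusted p = 0.011) on the log2 scale. Adam8, Adam12 and Mmp14 were the members with every shSiva array above every control array of the line, 3 of 35 tested, against 2.51% of all genes. No member had every shSiva array below the controls of its line, against 2.05% of all genes.

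Mmp10, stromelysin-2, sits in the cluster on chromosome 9 (probe 7510011 to 7510070) and was seen on 8 arrays. In LSZ2 it read 13.9 with shGFP, 22.0 and 34.5 with shLacZ, 55.8 and 78.6 with shSiva1, and 28.4 and 42.4 with shSiva2. In LSZ4 the 4 control arrays, between 5.08 and 9.86, were not well above background, and of the shSiva arrays, with 23.9, 16.3, 30.4 and 24.9, the first of each hairpin was. All but 1 of the 8 shSiva arrays lay above the controls of their line. Mmp10 rose by 1.40 (SE 0.25, limma adjusted p = 0.0025) on the log2 scale. In LSZ4 the size of this rise rests on control arrays that were not well above background. After normexp background correction the change was 0.46 (adjusted p = 0.374).

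Adam32 (chromosome 8, 25946632 to 25946691) read 218 to 399 on the LSZ2 control arrays and 392 to 773 on the LSZ2 shSiva arrays, and 332 to 590 against 620 to 857 in LSZ4. The groups overlapped in LSZ2 and not in LSZ4. It rose by 0.75 (SE 0.19, limma adjusted p = 0.018) on the log2 scale. A second, dimmer probe gave 0.19, and with the mean of all probes Adam32 did not pass (adjusted p = 0.104). It also missed the threshold without the LSZ2 shGFP array (0.64, adjusted p = 0.0502).

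**Figure D2:**
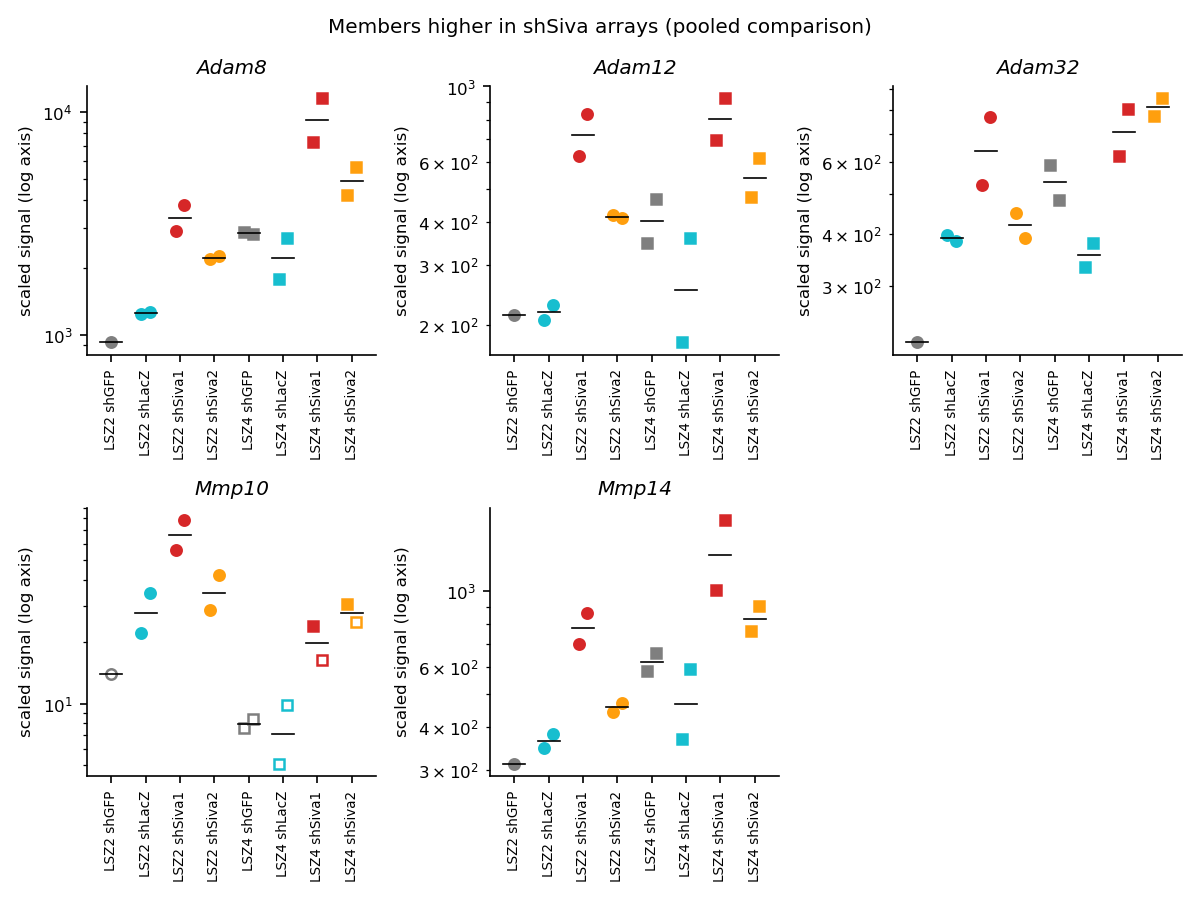
Scaled signal (log axis) of Adam8, Adam12, Adam32, Mmp10 and Mmp14 by line and hairpin; each point is 1 array, open where it was not well above background, and the bar is the group's geometric mean. The shSiva1 and shSiva2 arrays of Adam8 and Mmp14 lie above the control arrays of the same line.

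Line by line, 0 of the 35 members passed in LSZ2, where 0.94% of all genes did (0.76% higher and 0.179% lower), and 3 passed in LSZ4 (Adam8, Mmp10 and Adamts9), where 4.57% of all genes did (2.36% higher and 2.21% lower). Adamts9 passed narrowly in LSZ4 (1.69, SE 0.44, adjusted p = 0.042), and 12 of the 15 fits with 1 array left out ended its call. The difference between the lines was itself tested by limma and 0 of 22882 genes passed. At an unadjusted p under 0.05, 7 members (20%) passed in LSZ2, beside 10.2% of all genes, and 1 (2.86%), Adamts9, in the difference between the lines, beside 2.29%. The changes of Adam8 were 1.26 (SE 0.31) in LSZ2 and 1.42 (SE 0.29) in LSZ4, and those of Adam12 were 1.34 (SE 0.33) and 1.04 (SE 0.31). Without both LSZ4 shGFP arrays, 0 members passed in LSZ4, beside 1.49% of all genes, and Adam8 then gave 1.61 (adjusted p = 0.0564). Without LSZ4 shLacZ replicate 1 alone, 10 members passed in the pooled comparison, beside 16.6% of all genes, and 8 passed in LSZ4, beside 26.5%. When each of the 8 groups was reduced to its mean, Adam8 alone of the 35 members passed (1.38, adjusted p = 0.041), beside 1.28% of all genes.

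The stromelysin gene Mmp11 and the aggrecanase gene Adamts4 set shSiva1 apart from shSiva2. With shSiva1, 16 of 35 members passed against the 7 control arrays, 11 higher and 5 lower, while 25.9% of all genes passed, 10.2% higher and 15.7% lower. With shSiva2, 5 passed, 4 higher and 1 lower, while 12.3% of all genes passed, 6% higher and 6.29% lower. Both comparisons use the same control arrays. Set directly against each other, shSiva2 and shSiva1 differed in 9 members (25.7%), near the share of all genes (19.5%, 10.1% higher and 9.43% lower): Mmp11, Mmp14, Adam8, Adam26b, Adamts4 and Adamts6 were lower with shSiva2, and Mmp23, Mmp28 and Adam1a were higher. The remaining Siva1 signal was 3573 to 6418 with shSiva1 and 7925 to 12313 with shSiva2, and its part in these differences was not tested.

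Mmp11, stromelysin-3, is activated inside the cell by furin and is known from the stroma of carcinomas. Its probe lies on chromosome 10 (75386024 to 75386083). On the control arrays Mmp11 read 633 and 758 and 904 with shGFP (LSZ2, then LSZ4) and 655, 675, 445 and 760 with shLacZ. With shSiva1 it read 1971 and 2596 in LSZ2 and 2961 and 3537 in LSZ4, and with shSiva2 429 and 480 in LSZ2 and 441 and 521 in LSZ4. The shSiva1 arrays lay above every other array, and the shSiva2 arrays at the lower end of the controls. Mmp11 rose by 2.01 (SE 0.18, limma adjusted p = 1.4e-06) with shSiva1, a 4.04-fold change. With shSiva2 the change was -0.52 (SE 0.18, adjusted p = 0.081), and the difference of the hairpins was -2.54 (SE 0.21, adjusted p = 5.6e-07). The second Mmp11 probe gave -2.77.

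Adamts4, an aggrecanase, has its probe on chromosome 1 (173189952 to 173190011). On the control arrays it read 57.5 in LSZ2 and 162 and 133 in LSZ4 with shGFP, and 66.9, 64.3, 69.2 and 92.2 with shLacZ. With shSiva1 it read 164 and 227 in LSZ2 and 456 and 626 in LSZ4, above every control array. With shSiva2 it read 24.5 and 37.6 in LSZ2 and 40.6 and 52.8 in LSZ4, below every control array. Adamts4 rose by 1.97 (SE 0.24, limma adjusted p = 2.8e-05) with shSiva1 and fell by 1.13 (SE 0.24, adjusted p = 0.0056) with shSiva2. The hairpins differed by -3.10 (SE 0.27, adjusted p = 1.2e-06). A second Adamts4 probe, on no array well above background, gave -0.55 between the hairpins and 0.10 with shSiva2. With the probe used, Adamts4 was the only one of the 35 members tested with all shSiva1 arrays above and all shSiva2 arrays below all controls, a pattern of 0.38% of all genes. After normexp correction the fall with shSiva2 was 0.47 and did not pass (adjusted p = 0.328).

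**Figure D3:**
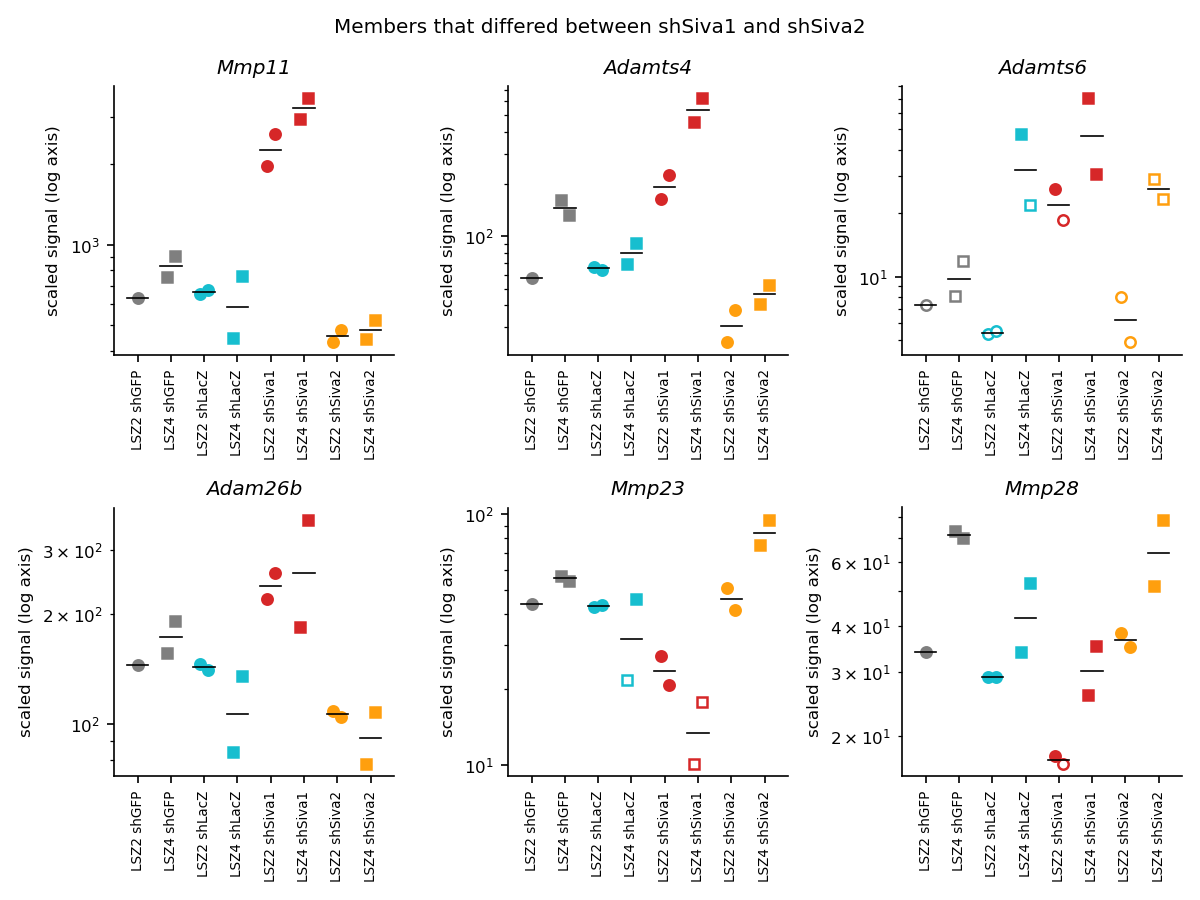
Scaled signal (log axis) of 6 of the members that differed between shSiva1 and shSiva2, by hairpin and line; each point is 1 array, open where it was not well above background, and the bar is the group's geometric mean. For Mmp11 and Adamts4 the 4 shSiva1 arrays lie above all controls, and for Adamts4 the 4 shSiva2 arrays lie below them.

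Adam26b, a testis Adam of the mouse, read 84.1 to 191 on the control arrays, 184 to 363 with shSiva1 and 77.9 to 109 with shSiva2. The hairpins did not overlap, and the difference was -1.33 (SE 0.25, limma adjusted p = 0.0012). Adamts6 was well above background on 3 of the 4 shSiva1 arrays (26.0 to 70.4, and 18.6 on the fourth), on none of the shSiva2 arrays and on 1 control array, LSZ4 shLacZ replicate 1 (47.5). It was at least 1.44-fold higher with shSiva1 than with shSiva2 (limma adjusted p = 0.048). Of the 15 fits with 1 array less, 11 did not make this call (adjusted p up to 0.147). Adamts6 reached the filter of 4 arrays through shSiva1 and this control array, so the call is not independent of the filter.

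The 2 Mmp genes that differed the other way were dim. Mmp23, which is released from the membrane by cleavage of its own chain, read 21.8 to 56.6 on the control arrays, 10.1 to 27.1 with shSiva1 and 41.6 to 94.9 with shSiva2. Mmp28, epilysin, read 29.1 to 73.1 on the control arrays, 16.8 to 35.3 with shSiva1 and 35 to 78.4 with shSiva2. Both lay lower with shSiva1, without overlap of the hairpins for Mmp23. The difference was 1.80 (SE 0.35, limma adjusted p = 0.0015) for Mmp23 and 1.08 (SE 0.22, adjusted p = 0.0026) for Mmp28. The second Mmp28 probe gave 0.55 between the hairpins and -0.24 with shSiva1. After normexp correction the differences were 0.31 (adjusted p = 0.699) and 0.09 (adjusted p = 0.914), and neither passed.

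Adam1a, a fertilin subunit known from sperm, read 16.6 to 26.7 with shSiva1 and 35.8 to 47.0 with shSiva2, without overlap, and 24.6 to 66.8 on the control arrays, which overlapped both. The difference was 0.87 (SE 0.26, limma adjusted p = 0.027) and was lost without any of 6 arrays (adjusted p up to 0.0869). The hairpin differences of Adam8 (-0.75, SE 0.21, adjusted p = 0.018) and Mmp14 (-0.69, SE 0.20, adjusted p = 0.022) were of size, not direction. They missed the threshold without any of 2 arrays (adjusted p up to 0.0745) for Adam8 and without any of 5 (adjusted p up to 0.0866) for Mmp14. In all, 5 of 35 members (Mmp11, Adamts4, Adam26b, Adam12 and Adam5) had every shSiva2 array below every shSiva1 array, against 9.43% of all genes, and 2 (Mmp23 and Adam1a) had every one above, against 12.5%. Adam12 read 412 to 615 with shSiva2 and 627 to 924 with shSiva1, without overlap, and the difference of -0.68 (SE 0.25) did not pass (adjusted p = 0.066). For Adamts14 the probe used gave a difference of -0.97, which did not pass. A second Adamts14 probe, with the same mean log2 signal of 4.14 and also on 4 arrays, gave -4.45 (3.85 with shSiva1 and -0.60 with shSiva2). That probe was not tested alone.

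Of the other members called with shSiva1, Adam12 rose by 1.52 (SE 0.22, limma adjusted p = 0.00013), Mmp14 by 1.21 (SE 0.18, adjusted p = 0.00014) and Mmp10 by 1.51 (SE 0.30, adjusted p = 0.002). Adam26b rose by 0.83 and did not pass without LSZ4 shSiva1 replicate 2 (0.61, adjusted p = 0.0657). Mmp23 fell by 1.25, Mmp28 by 0.85 and Adam1a by 0.71 on the log2 scale. Adamts9 rose by 1.48 (SE 0.39, limma adjusted p = 0.013) and the membrane-type enzyme Mmp15 by 1.26 (SE 0.41, adjusted p = 0.035). Adamts6 also rose (1.63, SE 0.39, adjusted p = 0.0072). Adamts9, Mmp15 and Adamts6 were well above background on 1, 3 and 1 of the 7 control arrays, so these sizes rest partly on signals near background. Adamts6 reached the filter of 4 arrays largely through shSiva1, so its call is not independent of the filter. Adamts17, a relative of Adamts10, fell by 1.14 (SE 0.27, adjusted p = 0.0068), and on the shSiva1 arrays it was well above background on 1 of 4. Adamts8 fell by 0.56 (SE 0.18, adjusted p = 0.029) and Adam32 rose by 0.85 (SE 0.22, adjusted p = 0.012). Leaving out any of 5 arrays ended the call of Mmp15 (adjusted p up to 0.141) and of Adamts8 (up to 0.0957). For Adamts9, leaving out LSZ4 shSiva1 replicate 1 or 2 did so (up to 0.0698), and for Adam1a any of 6 arrays (up to 0.111).

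With shSiva2, Mmp24, a membrane-type enzyme known from the nervous system, rose by 1.08 (SE 0.30, limma adjusted p = 0.029). It read 63.5, 81.9, 59.8 and 69.5 with shSiva2, above all 7 control arrays (16.6 to 46.2). A second Mmp24 probe gave a change of 0.01 with shSiva2, and with the mean of both probes the gene did not pass (0.54, adjusted p = 0.277). Mmp10 rose by 1.29 (SE 0.30, adjusted p = 0.011) and Adam12 by 0.84 (SE 0.22, adjusted p = 0.019). Without LSZ4 shSiva2 replicate 1 Mmp10 did not pass (1.05, adjusted p = 0.0636), and without any of 3 arrays Adam12 did not (adjusted p up to 0.0745). The control hairpins shLacZ and shGFP differed in 0 of the 35 members and in 0.00437% of all genes, 1 gene, by limma with line and the 4 hairpins as terms. At an unadjusted p under 0.05, 2 members (5.71%) did, Adamts17 and Mmp28, beside 10.1% of all genes.

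**Figure D4:**
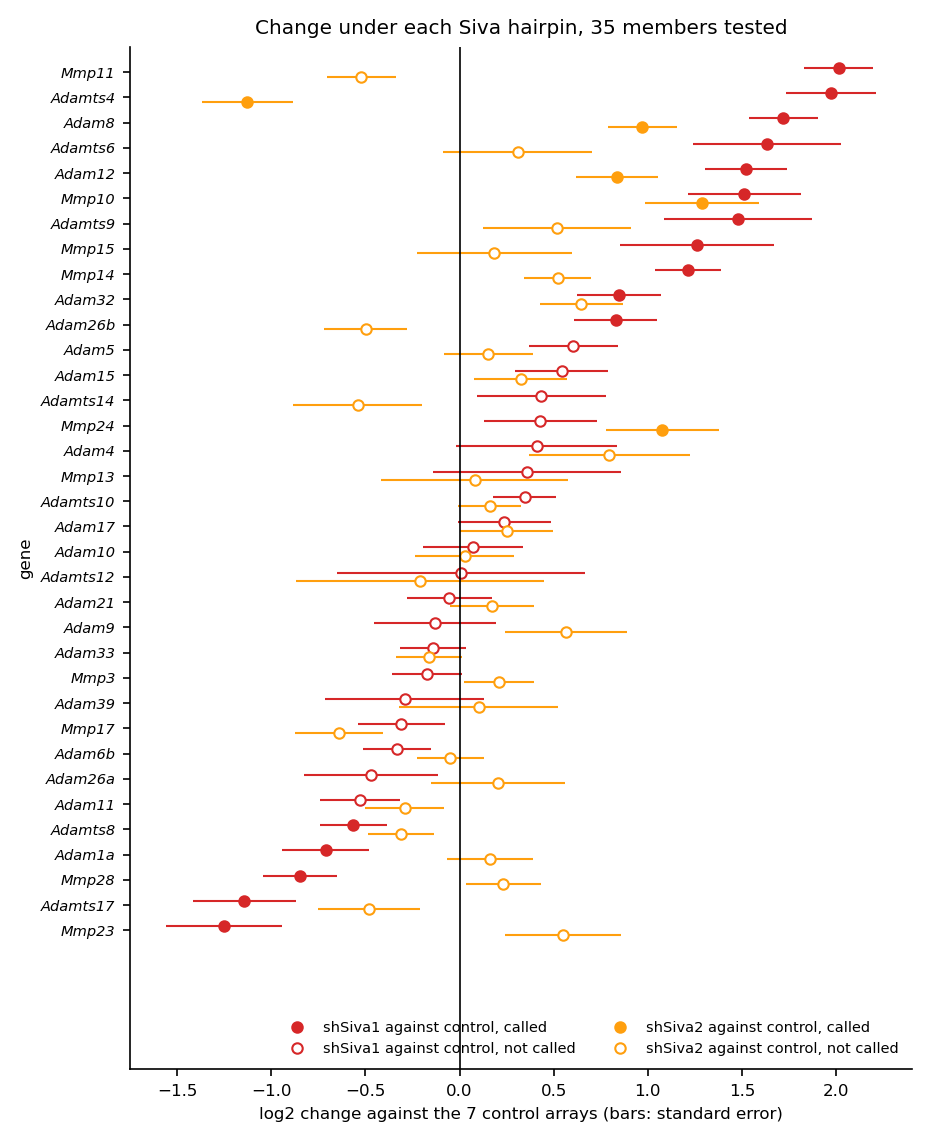
Log2 change against the 7 control arrays of each of the 35 members tested, with shSiva1 (red) and shSiva2 (orange), ordered by the shSiva1 change; bars are standard errors and filled points passed the test. The points of Mmp11 and Adamts4 lie furthest apart, at 2.01 and -0.52 and at 1.97 and -1.13, and both comparisons share their control arrays.

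Mmp3, Mmp10 and Mmp13, which lie near each other on chromosome 9, were lower in LSZ4 than in LSZ2, and after normexp background correction none of them passed. LSZ4 against LSZ2, with arm as a term, gave 11 called members of 35 (31.4%), 7 higher and 4 lower in LSZ4, while 21.7% of all genes passed, 14.6% higher and 7.14% lower. The median log2 change was 0.20 over the members tested and 0.23 over all genes, and with quantile scaling that over all genes was 0.07. Lower in LSZ4 were Mmp3, Mmp10, Mmp13 and Mmp15, and higher were Adam8, Adam11, Adam15, Adamts6, Adamts9, Mmp14 and Mmp28. Mmp3, Mmp10, Mmp13 and Mmp15 reached the filter of 4 arrays through LSZ2, and Adamts9 through LSZ4. Their calls and lack of overlap are thus not independent of the filter.

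Mmp13, collagenase-3, the main interstitial collagenase of rodents (chromosome 9, 7282762 to 7282821), was well above background on all 7 LSZ2 arrays and on 1 of 8 LSZ4 arrays. In LSZ2 it read 114 with shGFP, 119 and 82.5 with shLacZ, 146 and 94.7 with shSiva1, and 55.1 and 77.4 with shSiva2. In LSZ4 the shSiva1 array above background read 37.3, and the other 7 arrays read 5.10 to 27.5. No LSZ4 array reached an LSZ2 array. The limma adjusted p was 0.00026, with no fold over all arrays, since 7 of 8 LSZ4 arrays were not well above background. On the control arrays, where LSZ4 had none above background, Mmp13 was at least 3.9-fold higher in LSZ2.

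Mmp3, stromelysin-1 (chromosome 9, 7455751 to 7455810), was on 5 of 7 LSZ2 arrays and on none of the 8 LSZ4 arrays. It read 18.2 to 28.0 in LSZ2 and 3.76 to 7.62 in LSZ4, without overlap. The fit gave an adjusted p of 2.7e-06 (limma), and no fold is given, since the lowest signals counted as above background were as high as the LSZ2 values. On the shSiva arrays alone Mmp3 was at least 1.17-fold higher in LSZ2 (adjusted p = 2.9e-05). Mmp3 and Mmp13 were the members with every LSZ4 array below every LSZ2 array, 2 of 35, against 1.08% of all genes. Both passed the filter through LSZ2, where they are high, so this count is not independent of the filter.

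Mmp10, the third gene of this cluster, read 13.9 to 78.6 in LSZ2 and 5.08 to 30.4 in LSZ4, with a log2 change of -1.27 (SE 0.25, limma adjusted p = 0.0045). It was above background on 6 of 7 LSZ2 and 2 of 8 LSZ4 arrays, so the size of this change rests on LSZ4 signals near background. The 10 Mmp probes on chromosome 9 lie between 7.28 and 7.70 Mb, and 6 of these genes (Mmp1a, Mmp1b, Mmp8, Mmp12, Mmp20 and Mmp27) were on no array well above background in either line. The AP-1 motif and the TATA box shown for Mmp3, Mmp10 and Mmp13 were also in the windows of Mmp1a and other neighbours that were on no array. After normexp correction, which adds 50 units to each spot, the line changes of Mmp3 and Mmp10 were 0.32 each and that of Mmp13 was -0.45. The median over all genes was then 0.36, and Mmp3, Mmp10 and Mmp13 did not pass (adjusted p = 0.331, 0.288 and 0.141).

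Mmp15, a membrane-type enzyme (chromosome 8, 97897703 to 97897762), was on all 7 LSZ2 arrays, at 30.9 to 66.9, and on 2 of 8 LSZ4 arrays, both with shSiva1, at 24.6 and 38.1. The LSZ4 control arrays read 4.56 to 13.3. The limma adjusted p was 0.0034, with no fold over all arrays, since 6 of 8 LSZ4 arrays were not well above background. On the control arrays Mmp15 was at least 1.79-fold higher in LSZ2. With normexp correction its line change was 0.04 (adjusted p = 0.899), beside a median of 0.36 over all genes.

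Adamts9, a proteoglycanase related to the Gon-1 enzyme of Caenorhabditis elegans (chromosome 6, 92723051 to 92723110), was on none of the 7 LSZ2 arrays and on 5 of 8 LSZ4 arrays. In LSZ4 it read 23.8 and 18.7 with shGFP, 53.0 and 22.7 with shLacZ, 198 and 125 with shSiva1, and 63.8 and 37.2 with shSiva2, and in LSZ2 7.04 to 13.2. It was at least 3.15-fold higher in LSZ4 (limma adjusted p = 0.00029), and at least 5.82-fold on the shSiva arrays alone. Every LSZ4 array lay above every LSZ2 array, the only such case among the 35 members, against 0.931% of all genes. Adamts9 passed the filter only through LSZ4, so its call and lack of overlap are set against LSZ2 signals near background.

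**Figure D5:**
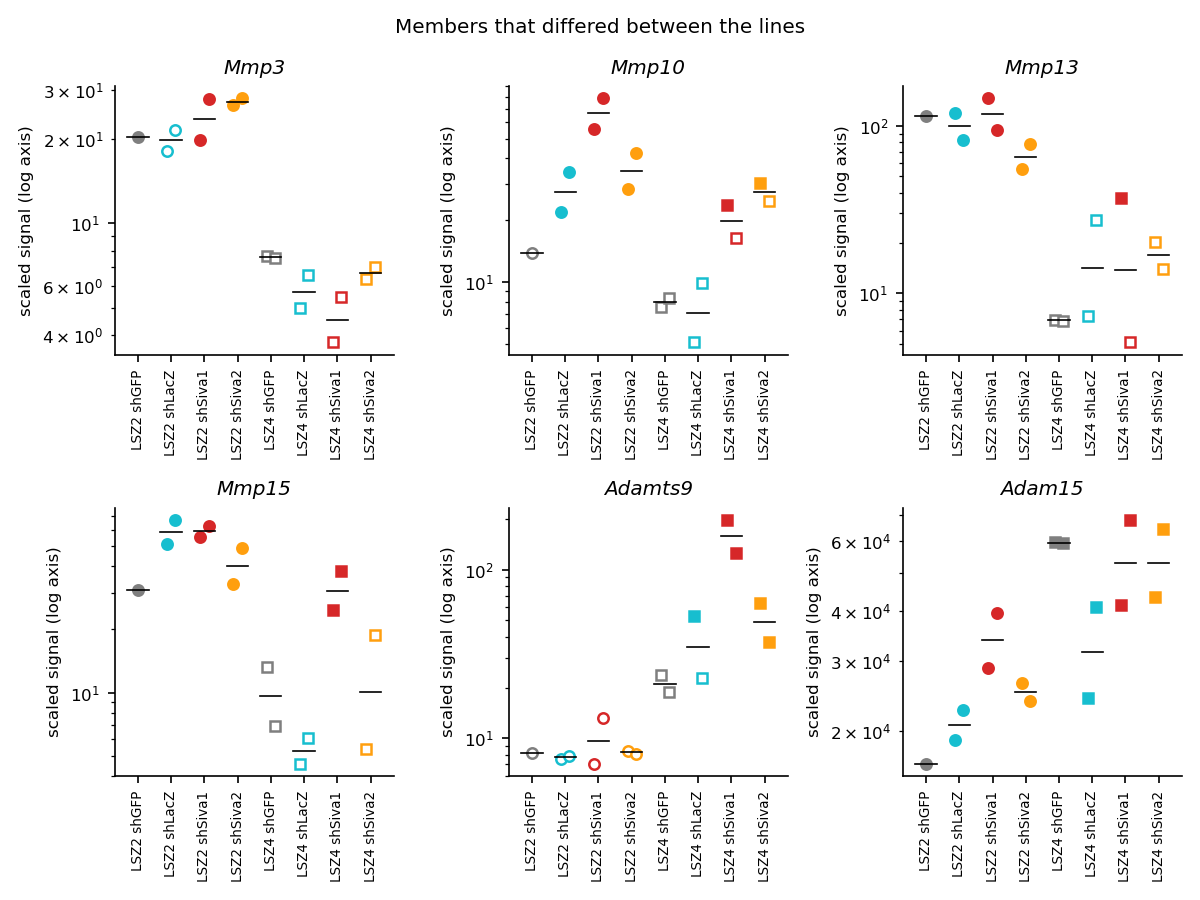
Scaled signal (log axis) of Mmp3, Mmp10, Mmp13, Mmp15, Adamts9 and Adam15 by line and hairpin; circles are LSZ2 arrays and squares LSZ4 arrays, open where not well above background, and the bar is the group's geometric mean. The LSZ4 squares of Mmp3 and Mmp13 lie below all LSZ2 circles, and those of Adamts9 above them.

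Adam15, a sheddase with an integrin-binding loop (chromosome 3, 89143563 to 89143622), read 16539 to 39708 in LSZ2. In LSZ4 it read 59680 and 59407 with shGFP, 24233 and 41050 with shLacZ, 41376 and 67965 with shSiva1, and 43382 and 64483 with shSiva2. The lines overlapped, through the first shLacZ array and the LSZ2 shSiva1 arrays. The log2 change was 1.01 (SE 0.21, limma adjusted p = 0.0064). The 4 highest LSZ4 values came from arrays with 75th percentiles of 428 to 586 units, and with the 75th percentile of the array as a covariate the change was 0.45 (adjusted p = 0.197).

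Adam8 was 2.34-fold higher in LSZ4 (1.23 on the log2 scale, SE 0.21, limma adjusted p = 0.0014) and passed in the control and in the shSiva arrays taken alone (adjusted p = 0.046 and 0.034). Mmp14 (0.72, SE 0.20, adjusted p = 0.027), Mmp28 (0.82, SE 0.26, adjusted p = 0.04) and Adam11 (0.59, SE 0.18, adjusted p = 0.036) passed narrowly. With brightness as a covariate they gave 0.54, 0.18 and 0.06 (adjusted p = 0.322, 0.801 and 0.83), and the second Adam11 probe gave 0.27. Leaving out any of 6, 11 and 10 arrays ended the calls (adjusted p up to 0.0656, 0.09 and 0.091). Adamts6 (1.57 on the log2 scale, SE 0.40, adjusted p = 0.021) was on 1 of 7 LSZ2 and 3 of 8 LSZ4 arrays, and without LSZ2 shLacZ replicate 1 it did not pass (1.54, adjusted p = 0.0549).

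Within the control arrays 7 members passed between the lines, 3 higher and 4 lower in LSZ4, beside 5.98% of all genes (3.53% higher and 2.45% lower). Within the shSiva arrays 4 passed, 2 in each direction, beside 1.66% (0.647% higher and 1.01% lower). Mmp3, Mmp13, Adamts9 and Adam8 were called in both. Leaving out LSZ4 shLacZ replicate 1 moved the line comparison to 20 members, beside 52.6% of all genes, and that within control arrays to 19, beside 56.1%. Without LSZ4 shSiva1 replicate 1 the line comparison gave 19 members, beside 50.1%. On LSZ4 shLacZ replicate 1 Mmp3 read 4.97 and Mmp13 7.35, as low as on the other LSZ4 arrays. Adam10 (8768), Adam9 (22306) and Adam17 (113) read there within the LSZ2 range or above it. The same held on LSZ4 shSiva1 replicate 1 for Adam10 (8064), Adam9 (17826) and Adam17 (111). Of the 9 epithelial markers, Epcam was lower in LSZ4 (a mean of 290 on LSZ2 and 35.2 on LSZ4 control arrays) and Cldn3 (979 and 7743), Krt8 and Krt18 were higher. Of the other marker lists, Col1a2, Vim, Csf1r, Cd14 and Kdr were called higher in LSZ4. The part of these markers in the line differences was not tested.

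Among genes that act around these enzymes, Timp3 and Tspan33 were higher in the pooled shSiva arrays. Of the inhibitors of the family (Timp1 to Timp4, Reck and A2m), 5 were tested and 1 was called, Timp3. It rose from a mean of 78.7 in LSZ2 and 17.9 in LSZ4 control arrays to 5077 and 3551 with shSiva. The change was 6.88 on the log2 scale (SE 0.49, limma adjusted p = 1.2e-06). Timp3 was well above background on 4 of the 7 control arrays, so the size of this rise rests partly on signals near background. Timp1 and Timp2 were on all 15 arrays and did not pass. Of 8 tested regulators of Adam proteins, the iRhoms and TspanC8 tetraspanins, Tspan33 rose by 1.82 (SE 0.44, adjusted p = 0.017) and 0 fell. Of the 7 ligands of the epidermal growth factor receptor that Adam enzymes release, all on 15 of 15 arrays, 0 were called, with a median log2 change of -0.20. In that comparison 0 of 3 proprotein convertases, 2 Adamts-like genes, 2 cleaved proteoglycans and 3 astacin enzymes passed, beside 9.99% of all genes.

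Several of these genes passed for a single hairpin. Tspan33 rose by 2.77 with shSiva1 (limma adjusted p = 1.9e-05) and did not pass with shSiva2 (0.86, adjusted p = 0.106). With shSiva1, Mep1a, a meprin of the astacin family, rose by 2.01 (limma adjusted p = 3e-06), Acan, the aggrecan core protein that Adamts4 cuts, by 1.70 (adjusted p = 0.00012) and Bmp1, a procollagen C-proteinase, by 1.15 (adjusted p = 0.00017). Adamtsl4 fell by 1.32 (adjusted p = 0.00018) with shSiva1, and Adamtsl5, Tgfa, Rhbdf1 and Tspan15 also fell. With shSiva2, Mep1a fell by 1.08 (adjusted p = 0.0018), Tspan17 also fell, and Rhbdf2 and Hbegf rose. Between the hairpins 2 of 3 astacin enzymes, both Adamts-like genes, 1 of 2 proteoglycans, 4 of 8 Adam regulators, 2 of 7 ligands, 1 of 5 inhibitors (Timp1) and 0 of 3 convertases differed. Of all genes, 19.5% differed between the hairpins, 25.9% passed with shSiva1 and 12.3% with shSiva2. The lists are short and were chosen with earlier results of these data known.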

How the data were processed

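RNA of 15 samples was measured on 1-colour Agilent arrays of 59305 gene spots. The deposited files are scanner output, made per the file headers by Feature Extraction 10.7.3.1, with a background-subtracted processed intensity per spot, and probe positions are given on mm9. The deposited value table holds log2 values centred per probe, and served only as a check. Exon and UTR annotation was not used here.

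Spots flagged as outliers were left out, spots of a probe averaged, and log2 intensity was taken less the 75th percentile of its array. Accessions gave 26582 probes a current RefSeq symbol. A gene was tested where it stood above background on 4 or more arrays and lacked a value on no more than 3. The fit used limma 3.58.1 (R 4.3.3), with Benjamini-Hochberg adjustment over all 22882 genes. The script was tested on simulated data. Where a group had no array above background, the fold is a bound: the other group's mean against, per array, the higher of the lowest signal among probes above background and the dim probe's own. Number of arrays limits the precision.

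Named members are those called in a comparison, beside the role groups. The members and lists were chosen with earlier results of these data known.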

Additional observations from a re-analysis of the deposited data

Results flagged for a closer look

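Among 69 groups of 4 arrays tested for a value far from the others, 3 held one, and chance gives about 1 in 20. Mmp13 read 27.5 on LSZ4 shLacZ replicate 2, while the other LSZ4 control arrays read 6.88 to 7.35, and none of the 4 was well above background. On LSZ4 shLacZ replicate 1, Adam8 read 1787 against 2710 to 2890 on the other LSZ4 control arrays, and Adam10 read 8768 against 3426 to 3911.

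The change against control differed between the hairpins in 9 members, by the direct comparison of shSiva2 with shSiva1 (limma adjusted p under 0.05), 25.7% of the 35 tested, beside 19.5% of all genes. The shSiva2 less shSiva1 difference on the log2 scale was -3.10 for Adamts4, -2.54 for Mmp11, -1.33 for Adam26b, -1.32 for Adamts6, -0.75 for Adam8 and -0.69 for Mmp14. It was 1.80 for Mmp23, 1.08 for Mmp28 and 0.87 for Adam1a. No shSiva2 array was well above background for Adamts6, so its value rests on signals near background.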

How the results depend on the processing

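Counts of members called are given with the share of all genes called under the same setting in brackets. After normexp correction they were 3 (3.54%) for the pooled shSiva comparison, 1 (2.26%) in LSZ4, 7 (17.1%) for shSiva1, 1 (5.24%) for shSiva2, 4 (13.3%) between hairpins, 5 (8.87%) between lines, 0 (1.88%) between lines in control arrays and 1 (0.769%) in shSiva arrays. Dim members turned in sign under it: the line change became 0.32 for Mmp3 (0.17 in control and 0.45 in shSiva arrays), 0.32 for Mmp10 (0.22 in control arrays) and 0.042 for Mmp15, and the shSiva1 change became 0.028 for Mmp28 and 0.024 for Adam1a. The median log2 change over all genes was then 0.36 between lines (0.40 in control and 0.24 in shSiva arrays) and -0.04 for shSiva1. Among genes above background on all arrays, with 19 members tested, 1 (4.35%) passed in LSZ4, 8 (27.1%) with shSiva1, 3 (12.2%) with shSiva2, 5 (20.2%) between hairpins, 2 (8.17%) between lines in control arrays and 1 (1.17%) in shSiva arrays. With no filter, 23 of 76 (24.1%) passed between lines and 3 (1.83%) in control arrays. Quantile scaling gave 4 (6.03%) in control arrays, and the mean of all probes 1 (0.925%) in LSZ2. With array brightness as a covariate, chosen after seeing the data, the counts were 11 (29.2%) pooled, 5 (8.32%) in LSZ2, 8 (17.3%) in LSZ4, 16 (38.3%) for shSiva2, 15 (42.1%) between hairpins, 7 (4.25%) between lines and 3 (2.37%) in control arrays. Without both LSZ4 shGFP arrays, also chosen later, they were 0 (1.49%) in LSZ4 and 2 (1.32%) between lines in control arrays. Line and hairpin as a random block gave 3 (7.8%) for shSiva2, 5 (14%) between hairpins and 7 (4.6%) between lines, and the 8 group means 1 (1.28%) pooled and 4 (1.97%) between lines. The random block was not run within a line, and the group means served the pooled and line comparisons only. The cause of these moves was not tested, apart from the fewer samples or genes that group means and filters leave.

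With 1 array left out, the counts ran from 4 to 10 pooled, 0 to 1 in LSZ2, 2 to 8 in LSZ4, 12 to 17 for shSiva1, 3 to 8 for shSiva2, 6 to 10 between hairpins, 7 to 20 between lines, 2 to 19 in control arrays and 2 to 4 in shSiva arrays, and were 0 throughout for the difference between the lines and for shLacZ against shGFP. Leaving out LSZ4 shLacZ replicate 1 gave the 20 (52.6%) and the 19 (56.1%), and leaving out LSZ4 shSiva1 replicate 1 gave 19 (50.1%) between lines. Without LSZ2 shLacZ replicate 1 the counts were 7 (5.76%) between lines and 2 (1.6%) in control arrays. The share of all genes thus moved in these 2 comparisons too, so their ranges do not belong to the members alone.

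The labels do not tie replicate numbers to shared cultures. Deviations of same-numbered arrays from their group means correlated by over 0.1 in 14 of 21 pairs of groups (-0.21 to 0.73). Both arrays of a group mirror each other there, and in 6 of 7 groups they were most like arrays of their own number in another group, a hint from the data and not the design. The replicate block gave 8 members (12.7%) pooled, 6 (6.4%) in LSZ4 and 8 (15.2%) for shSiva2. Signal over background limits the dim members, such as Mmp3, Mmp10 and Mmp23, most.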
